A study of Mus musculus with 10 samples.

Results

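The genes examined encode the components of desmosomes, the spot-like junctions that join neighbouring epithelial cells and anchor their intermediate filaments. They were taken as a list by gene symbol: the desmocollins Dsc2 and Dsc3, the desmogleins Dsg2 and Dsg3, the armadillo proteins Jup, Pkp1, Pkp2 and Pkp3, the plakin Dsp and the membrane protein gene Perp. All 10 had a row in the count table of 24594 genes, and all 10 passed the filter on low counts. RNA was sequenced from luminal and basal mammary epithelial cells of wild-type C57BL/6J mice, with 5 libraries of each layer. The glands were virgin. The labels give no age, and the study states only an age range in weeks for the mice of its experiments. Luminal cells line the lumen of the ducts, and basal cells form the contractile outer layer. Both were released with collagenase/hyaluronidase, trypsin and dispase and were separated by a flow sort for EpCAM and CD49f, so that luminal progenitors and mature luminal cells were not told apart. In its sorts the study also describes staining with lineage antibodies to TER-119, CD31 and CD45.

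In a desmosome, desmocollins and desmogleins bridge the gap between cells, plakoglobin (the product of Jup) and plakophilins bind their tails, and desmoplakin ties this plaque to keratin filaments. Simple epithelia are known for DSC2, DSG2 and PKP2, whereas stratified epithelia such as the epidermis also make DSC3, DSG3 and PKP1 in their deeper or upper layers. The mammary duct holds an inner and an outer epithelial layer side by side, so the paralogs used by each can be compared within the same gland.

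The sample titles name the opposite layer in all 10 libraries, and the groups here follow the cell type label. All 9 luminal and all 7 basal lineage markers examined followed that label without overlap between the groups. Of all genes tested, 50.1% did not overlap, in either direction. Library totals ranged from 13203146 to 17998165 counts. Levels are given as CPM, the depth-scaled count, on totals scaled with TMM factors. Basal replicate 4 stood apart in genes of epidermal keratinocytes. The summed level of Krt1, Krt10, Krt77, Krtdap, Sbsn and Lor was 452 CPM there, against 32.6 to 57.3 CPM in the other basal and 63.6 to 134 CPM in the luminal libraries. Some markers of non-epithelial cells moved with the layers. Summed immune markers were at 10.3 to 20.6 CPM in luminal and 33.7 to 59.6 CPM in basal libraries, and adipocyte markers at 0.610 to 2.26 and 3.94 to 8.87 CPM. Summed erythroid markers were at 4.73 to 18.3 CPM in luminal and 0.545 to 2.28 CPM in basal libraries. Endothelial markers (2.68 to 7.09 CPM luminal, 6.995 to 13.9 CPM basal) and fibroblast markers (23.6 to 111 CPM luminal, 25.5 to 41.1 CPM basal) overlapped. The basal layer was higher in Cd68, Cd74, Cdh5, Fabp4 and Pdgfra, the luminal layer in Hba-a1, Cd52 and Dcn, and Cd3e and Adipoq had no counts. Ptprc, the gene of CD45, was at most 0.38 CPM in any library, and Plin1, Cidec and Lep at most 1.06 CPM. Alas2 averaged 1.46 CPM in luminal and 1.30 CPM in basal libraries. The differences in the immune, adipocyte and erythroid sums thus came mainly from Cd68 and Cd74, from Fabp4 and from Hba-a1. The part of such cells in the values given here was not tested. In such bulk samples, fewer cells of a type and less RNA per cell cannot be told apart.

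The question was which desmosome genes differ between the layers and whether the layers use different paralogs. Dsc2 and Pkp2 were higher in luminal cells, by 8.77-fold and 13.2-fold. Dsg3, Dsc3, Pkp1, Dsp, Perp, Dsg2 and Pkp3 were higher in basal cells, from 15.1-fold for Dsg3 to 1.43-fold for Pkp3. The call of Dsc3 was lost without basal replicate 4 (log2 fold change -1.21, adjusted p 0.313). Those of Dsg2 and Pkp3 were lost when CPM was scaled on library totals alone (adjusted p 0.108 and 0.0759), which left 5 basal calls. For Jup no difference passed the test. Of the 10 genes, 2 were thus higher in luminal cells (adjusted p below 0.05 in the quasi-likelihood test of edgeR, with Benjamini-Hochberg adjustment over 14609 genes), where 33.6% of all genes tested were. In basal cells 7 of 10 were higher, against 31.2% of all genes. The 5 luminal and 5 basal values did not overlap for 7 of the 10 genes, against 50.1% of all genes. The median log2 fold change (luminal minus basal) of the 10 genes was -1.02, and that of all genes tested was 0.05. Summed over the 10 genes, the level averaged 1232 ± 224.5 CPM in luminal and 2402 ± 105.5 CPM in basal libraries (SD, n = 5 each). This sum is not scaled by transcript length, and Dsp alone made up 23.0% of it in luminal and 38.4% in basal libraries on average. It therefore does not describe the 10 genes as a set.

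**Figure D1:**
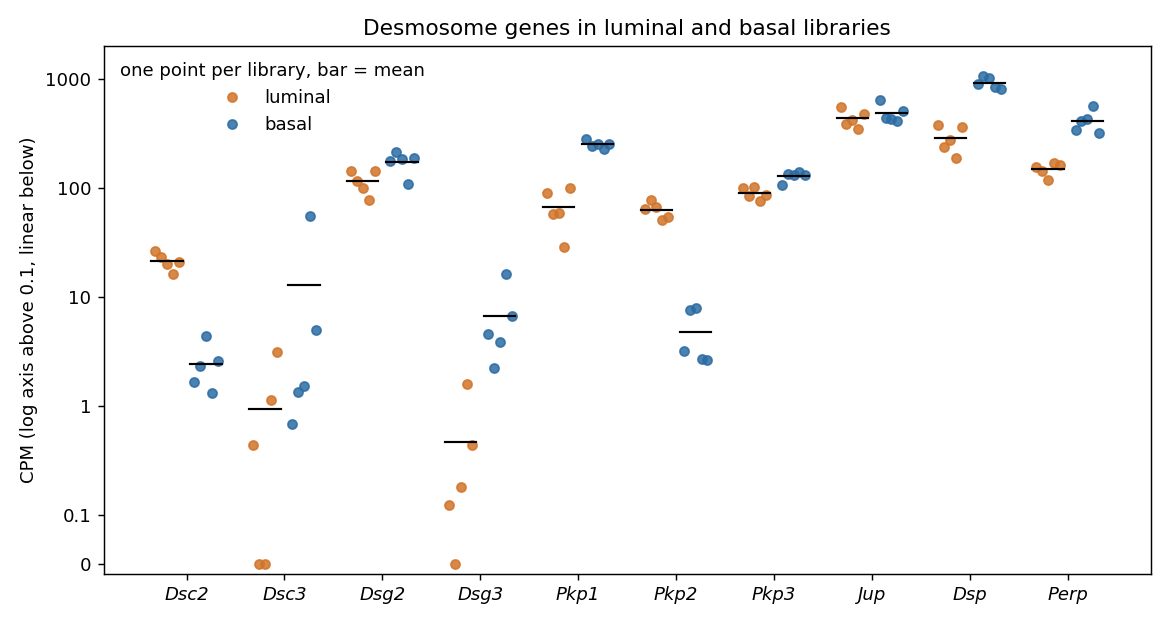
Level of each desmosome gene in every library, in CPM on an axis that is logarithmic above 0.1 and linear below, with luminal libraries in orange, basal libraries in blue and a bar at each group mean. Dsc2 and Pkp2 lie higher in the luminal libraries, Jup overlaps between the layers, and Dsc3 spreads in basal libraries from 0.685 to 55.3 CPM.

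Desmocollins are calcium-dependent cadherins of the desmosome. Dsc2 (Entrez 13506, GRCm38 chromosome 18, 20030633 to 20059554), the widely used desmocollin, was at 26.3, 23.4, 20.1, 16.4 and 20.9 CPM in luminal replicates 1 to 5. The basal replicates 1 to 5 held 1.68, 2.32, 4.41, 1.31 and 2.58 CPM. Each luminal library was above each basal library. Luminal cells were higher by 3.13 on the log2 scale (SE 0.29, adjusted p 4e-07). Across alternative fits, including those that left out a library, the log2 fold change stayed between 2.96 and 3.44 and past the threshold.

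Dsc3 (Entrez 13507, chromosome 18, 19960930 to 20002410), a desmocollin of stratified epithelia, was at 0.685, 1.36, 1.55, 55.3 and 5.03 CPM in basal replicates 1 to 5. In luminal replicates 1 to 5 it was at 0.437, 0, 0, 1.14 and 3.17 CPM, where the counts of 0 allow up to 0.158 and 0.184 CPM. Basal replicate 4 held 885 counts, the other basal libraries 11 to 84 and the luminal libraries 0 to 50, so that the groups overlapped. The basal library was the higher in all 5 same-numbered pairs. Over all libraries the fitted log2 fold change of Dsc3 was -3.77 (SE 1.27, adjusted p 0.0175). Without basal replicate 4 it was -1.21 (adjusted p 0.313), and without both libraries numbered 4, a fit chosen after seeing the data, -1.29 (adjusted p 0.305). The mean basal level without that library was 2.16 ± 1.95 CPM (SD, n = 4), against 12.8 ± 23.8 CPM (SD, n = 5) with it. The difference was also not past the threshold with limma voom (-3.84, adjusted p 0.0674) or in the test against a 2-fold change (adjusted p 0.0551). The call of Dsc3 therefore rested on basal replicate 4.

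Desmogleins are the partners of the desmocollins in the gap between cells. Dsg2 (Entrez 13511, chromosome 18, 20558074 to 20604526), the desmoglein of simple epithelia, was at 143.8, 116, 101, 77.0 and 142 CPM in luminal replicates 1 to 5. In basal replicates 1 to 5 it was at 175, 214, 183, 109 and 186 CPM. Basal replicate 4 was the lowest of its group and lay within the luminal range, while the other 4 basal libraries were above every luminal library. The log2 fold change of Dsg2 was -0.58 (SE 0.20, adjusted p 0.0202). It was not past the threshold on library totals alone (-0.39, adjusted p 0.108), in the test against a 2-fold change, or without basal replicate 2 (-0.51, adjusted p 0.0529). Of its exon bases, 330 are shared with Gm16090 on the opposite strand.

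Dsg3 (Entrez 13512, chromosome 18, 20510274 to 20541310), a desmoglein of the deep epidermal layers, was at 4.61, 2.25, 3.87, 16.4 and 6.77 CPM in basal replicates 1 to 5. Luminal replicates 1 to 5 held 0.125, 0, 0.184, 1.60 and 0.444 CPM. Every basal library exceeded every luminal one, and the highest value of each layer came from the library numbered 4. For Dsg3 this gave a log2 fold change of -3.92 (SE 0.80, adjusted p 0.00065). It was -3.29 (adjusted p 0.0024) without basal replicate 4 and -5.17 (adjusted p 4.75e-05) without luminal replicate 4. Without both libraries numbered 4 it was -4.53 (adjusted p 5.79e-05), and without both numbered 4 and both numbered 5 -5.09 (adjusted p 0.000202). Luminal counts were 0 to 21 per library, so the size of the fold depends on few reads.

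Some epidermal keratinocyte genes, though not Lor, moved with the highest values of Dsc3 and Dsg3. Krt1, a keratin of the upper epidermis, reached 111 CPM in basal replicate 4 and 2.58 CPM in basal replicate 5, against 0.204 to 0.436 CPM in basal replicates 1 to 3. Krt10, its filament partner, was at 246 and 10.1 CPM in the same 2 libraries, against 2.32 to 3.12 CPM. Krtdap, a keratinocyte differentiation gene, was at 13.6 and 0.719 CPM there and at 0 in basal replicates 1 to 3. Among the luminal libraries, replicates 4 and 5 also had the highest Krt1, at 6.18 and 5.01 CPM, and the only Krtdap counts, at 2.06 and 2.60 CPM. Of the 6 keratinocyte genes 4 were tested, of which Sbsn was higher in luminal cells, as were 33.6% of all genes tested, and 3 did not pass. Sbsn was at 56.4 CPM in basal replicate 4, against 28.9 to 47.2 CPM in the other basal libraries. Lor was at most 2.58 CPM in any library and did not peak in basal replicate 4. It was at 1.18, 0, 0.541, 0.375 and 2.58 CPM in basal replicates 1 to 5. In basal replicates 1 to 3, Dsg3 was at 2.25 to 4.61 CPM and Dsc3 at 0.685 to 1.55 CPM. There Krtdap was at 0, Krt77 at most 0.0682 CPM and Krt1 at most 0.436 CPM. Krt10 was at 2.32 to 3.12 CPM in these libraries, Sbsn at 28.9 to 47.2 CPM and Lor at 0 to 1.18 CPM. The part of epidermal cells in the values of Dsc3 and Dsg3 was not tested in any library.

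**Figure D2:**
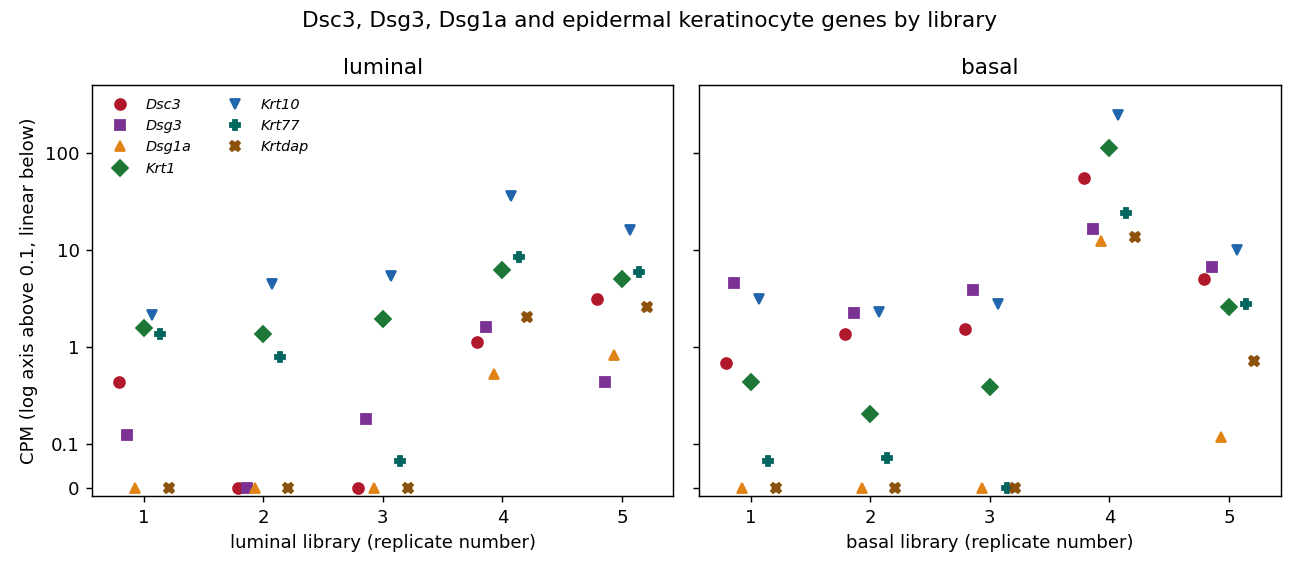
Dsc3, Dsg3, Dsg1a and the keratinocyte genes Krt1, Krt10, Krt77 and Krtdap in each luminal (left) and basal (right) library, in CPM on an axis that is logarithmic above 0.1 and linear below. All 7 genes peak in basal replicate 4 among the basal libraries, from 12.4 CPM for Dsg1a to 246 CPM for Krt10.

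To compare levels between genes, CPM was divided by the length of the longest annotated transcript. The study aligned reads to the genome with Bowtie2, and any loss of reads at exon junctions was not corrected for. The transcripts used have 3 exons for Perp, 6 for Pkp2, 14 for Pkp1 and Pkp3 and 24 for Dsp. Orders and shares between genes on this scale are therefore approximate. On this scale the desmocollins made up 17.1% to 21.6% of the summed level of Dsc2, Dsc3, Dsg2 and Dsg3 in luminal libraries. In basal libraries they made up 1.56%, 1.98%, 3.69%, 33.0% and 4.29% in replicates 1 to 5. Desmocollin transcripts were thus scarce beside desmoglein transcripts in basal replicates 1, 2, 3 and 5, and basal replicate 4 was the exception. Within the desmocollins, Dsc3 made up 0% to 11.7% in luminal libraries and 23.4% to 97.3% in basal libraries. The 97.3% was basal replicate 4, and the other basal libraries reached at most 62.9%. The 11.7% was luminal replicate 5, and the other luminal libraries reached at most 5.71%. Within the desmogleins, Dsg3 made up 0% to 1.89% in luminal and 0.968% to 12.3% in basal libraries. Both upper limits came from the libraries numbered 4, and the others reached at most 0.289% in luminal and 3.26% in basal cells. Dsg2 was thus the main desmoglein transcript in every library of both layers.

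Plakophilins bind desmoplakin and the cadherin tails at the plaque. Pkp2 (Entrez 67451, chromosome 16, 16213345 to 16272712), the plakophilin of simple epithelia and heart muscle, was at 64.5, 77.6, 66.8, 50.8 and 53.9 CPM in luminal replicates 1 to 5. Its basal values were 3.18, 7.63, 7.89, 2.69 and 2.64 CPM in the same order. The groups lay far apart, with basal values of at most 7.89 CPM. Luminal cells were higher by 3.72 on the log2 scale (SE 0.32, adjusted p 1.86e-07), a value that stayed between 3.48 and 3.97 over the alternatives.

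Pkp1 (Entrez 18772, chromosome 1, 135871394 to 135919207), the plakophilin of stratified epithelia, was at 280.1, 242, 252, 229.8 and 255 CPM in basal replicates 1 to 5. Its luminal values were, in the same order, 90.5, 57.5, 58.8, 29.0 and 101 CPM. All basal libraries were above all luminal ones, with a coefficient of variation of 7.43% among basal and 42.6% among luminal libraries. Pkp1 had a log2 fold change of -1.90 (SE 0.26, adjusted p 1.75e-05). Pkp3 (Entrez 56460, chromosome 7, 141078229 to 141090511), a plakophilin found in most epithelia, was at 106, 133, 131, 141 and 131 CPM in basal replicates 1 to 5. In luminal replicates 1 to 5 it was at 101, 84.7, 103, 75.2 and 86.4 CPM. The groups did not overlap, but the lowest basal and the highest luminal library were close, at 106 and 103 CPM. Pkp3 had a log2 fold change of -0.52 (SE 0.13, adjusted p 0.00324). It was not past the threshold on library totals alone (-0.32, adjusted p 0.0759), in the test against a 2-fold change, or without both libraries numbered 4 and both numbered 5 (-0.38, adjusted p 0.074).

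Shares per kilobase were taken within the sum of Pkp1, Pkp2 and Pkp3. The relative Pkp4, left out of this sum, averaged 24.2 CPM per kilobase in luminal and 33.4 in basal libraries. The summed transcripts of luminal libraries consisted of 46.6% ± 4.34 Pkp3, 32.4% ± 4.97 Pkp2 and 21.0% ± 7.25 Pkp1 (SD, n = 5). Those of basal libraries consisted of 54.2% ± 4.43 Pkp1, 44.2% ± 4.27 Pkp3 and 1.64% ± 0.904 Pkp2 (SD, n = 5). The share of Pkp1 was thus higher in every basal library and that of Pkp2 in every luminal library, while the shares of Pkp3 overlapped. With the coding length in place of the transcript length, Pkp1 made up 31.8% of the luminal and 68.0% of the basal sum, and Pkp3 39.6% and 30.8%.

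**Figure D3:**
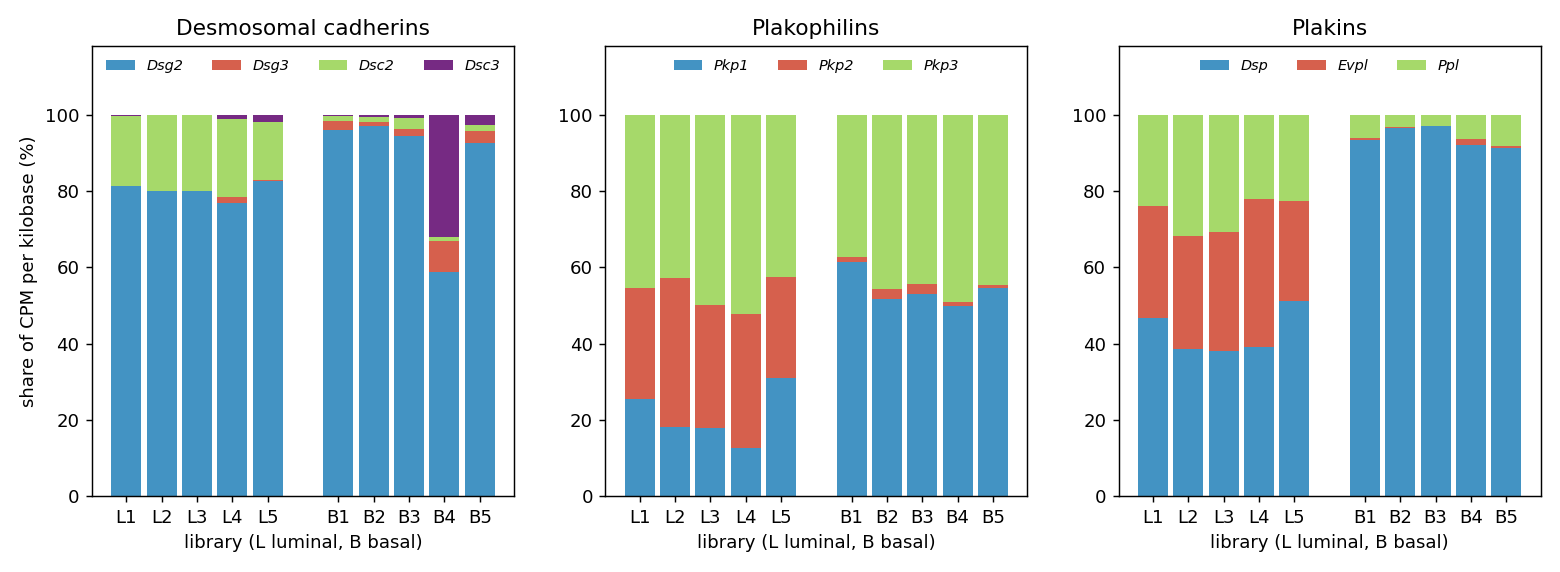
Make-up of the desmosomal cadherins (left), the plakophilins Pkp1, Pkp2 and Pkp3 without Pkp4 (middle) and plakins (right) in each luminal (L1 to L5) and basal (B1 to B5) library, as percent of the summed CPM per kilobase. Pkp2 fills 26.4% to 39.0% of the plakophilin bar in luminal and 0.897% to 2.64% in basal libraries, and Dsc3 fills a visible part of the cadherin bar in basal replicate 4.

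Plakoglobin and desmoplakin form the shared core of the plaque. Jup (Entrez 16480, chromosome 11, 100368856 to 100397839), which also binds the classical cadherins of adherens junctions, was at 551, 384.5, 415, 348 and 479 CPM in luminal replicates 1 to 5. In basal replicates 1 to 5 it was at 638, 437, 429, 410.2 and 507 CPM. The ranges overlapped, although the basal library was the higher in 5 of 5 same-numbered pairs. Jup had a log2 fold change of -0.15 (SE 0.17, adjusted p 0.455) and turned to 0.04 (adjusted p 0.834) on library totals alone. Dsp (Entrez 109620, chromosome 13, 38151294 to 38198577), the plakin that holds keratin filaments at the junction, was at 898, 1050, 1008, 848.5 and 813 CPM in basal replicates 1 to 5. In luminal replicates 1 to 5 it was at 376, 236, 274, 189.5 and 361 CPM. Every basal library was above every luminal library, the lowest basal value being 813 CPM and the highest luminal one 376 CPM. For Dsp this was a log2 fold change of -1.68 (SE 0.20, adjusted p 3.92e-06). Of the exon bases of Dsp, 499 are shared with Gm10129 on the opposite strand.

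Among the 10 genes, Jup and Dsp had an entry in the RefSeq promoter table of GRCm38.p6. Their upstream sequences are shown because the genes encode partners of the same plaque, of which Dsp differed between the layers and Jup did not pass the test. The capitals mark GC boxes (GGGCGG on either strand), the sequence bound by SP1-like factors. The Dsp sequence covers the 250 bases before the table's start, on the plus strand at chr13:38151044-38151293. The Jup sequence covers 201 bases on the minus strand at chr11:100397840-100398040, up to the outermost annotated start of the gene.
Dsp: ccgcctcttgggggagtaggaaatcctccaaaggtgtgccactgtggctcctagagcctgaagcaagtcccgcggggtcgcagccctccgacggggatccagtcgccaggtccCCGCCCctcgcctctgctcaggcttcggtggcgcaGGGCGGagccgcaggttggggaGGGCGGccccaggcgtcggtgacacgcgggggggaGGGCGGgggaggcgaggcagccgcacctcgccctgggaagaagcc
Jup: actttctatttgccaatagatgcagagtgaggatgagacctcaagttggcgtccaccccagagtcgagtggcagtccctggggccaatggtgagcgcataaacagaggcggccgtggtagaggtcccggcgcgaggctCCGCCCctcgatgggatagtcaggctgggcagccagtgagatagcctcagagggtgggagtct
The 250 bases before the start held 4 GC boxes in Dsp and 2 in Jup, of which 1 lies in the 49 bases of Jup not shown. A GC box was found in 32.7% of 32851 promoter windows of this length. A grainyhead sequence (AACCNGTT, in 1.79% of windows), an AP-1 sequence (TGANTCA, in 6.75%) and a TATA box (TATAAA, in 12.4%), searched on both strands, were not found in either window. These counts describe letters only.

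Perp (Entrez 64058, chromosome 10, 18845071 to 18857073) encodes a membrane protein of the desmosome and is known as a target of p53 and p63. Basal replicates 1 to 5 had Perp at 339, 409, 433, 567 and 320.2 CPM. Luminal replicates 1 to 5 had it at 156, 144, 117, 169 and 163 CPM. All basal libraries were above all luminal ones, and the highest value of each layer again came from replicate 4. Perp had a log2 fold change of -1.46 (SE 0.18, adjusted p 5.19e-06), and it was -1.33 (adjusted p 6.79e-06) without basal replicate 4.

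The spread within a layer was not the same for all members. Luminal replicate 4 was the lowest luminal library for 7 genes (Dsc2, Dsg2, Dsp, Jup, Pkp1, Pkp2 and Pkp3) and the highest for Dsg3 and Perp. Basal replicate 4 was the lowest basal library for Dsc2, Dsg2, Jup and Pkp1 and the highest for Dsc3, Dsg3, Pkp3 and Perp. Summed over the members, luminal replicate 4 was the lowest library at 958 CPM and luminal replicate 1 the highest luminal one at 1510 CPM.

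The order of the members was described per kilobase of transcript. In luminal libraries Jup was highest at 136 ± 25.1 CPM per kilobase (SD, n = 5), followed by Perp at 76.9 ± 10.6. Then came Pkp3, Dsp, Pkp2, Dsg2 and Pkp1 at 30.8, 30.0, 21.4, 20.1 and 14.4 on average, each of which overlapped the next. Dsc2 followed at 4.62 ± 0.802 and lay below them in every library, and Dsc3 and Dsg3 were last at 0.178 and 0.0758. In basal libraries Perp was highest at 212 ± 50.1 CPM per kilobase (SD, n = 5) and overlapped Jup at 151 ± 29.2. Dsp at 96.3 ± 10.6 and Pkp1 at 53.9 ± 4.004 came next, each apart from its neighbours, then Pkp3 at 44.1 and Dsg2 at 30.1, which overlapped. Dsc3, Pkp2, Dsg3 and Dsc2 were last, at 2.40, 1.64, 1.09 and 0.531, and each overlapped the next. The place of Dsc3 came from basal replicate 4, at 10.4 CPM per kilobase, against 0.129 to 0.943 in the other basal libraries, and in basal replicates 1 to 3 Dsc3 was the lowest member. With the coding length, Perp was highest in both layers, at 259 and 714 CPM per kilobase on average, since its coding part is 579 of 1952 bases. The coding length also changed other places in the order. In basal libraries Pkp1 then averaged 115 CPM per kilobase against 107 for Dsp, and Dsg3 2.28 against 2.01 for Pkp2. In luminal libraries the middle of the order became Pkp3, Dsg2, Dsp, Pkp1 and Pkp2, at 36.5, 34.4, 33.2, 30.8 and 26.3.

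Ratios of 2 members within a library do not depend on how libraries are scaled. The log2 ratio of Pkp1 to Pkp2 counts was 5.88 ± 0.82 (SD, n = 5) in basal and -0.01 ± 0.69 (SD, n = 5) in luminal libraries, a difference of 5.89. For Dsc3 to Dsc2 the difference was 6.86, for Dsg3 to Dsg2 3.95, for Pkp1 to Pkp3 1.51, for Dsp to Jup 1.57 and for Pkp2 to Pkp3 -4.38, each as basal minus luminal. In the exact two-sided permutation test over libraries, 5 of the 6 ratios reached p = 0.00794, the smallest that 5 against 5 libraries can give (adjusted p 0.00952 over the 6 ratios). The ratio of Dsg3 to Dsg2, whose groups overlapped, had an exact p of 0.0159 (adjusted p 0.0159). Each ratio differed in the same direction in 5 of 5 same-numbered pairs. A test within these pairs, added after seeing the data, gave an exact permutation p of 0.0625 for every ratio. That is the smallest that 5 pairs can give, so no ratio could pass the threshold with the pairing kept. Without both libraries numbered 4 the difference was 6.29 for Dsc3 to Dsc2 and 4.23 for Dsg3 to Dsg2, each with an exact permutation p of 0.0286, the smallest that 4 against 4 can give. In that setting Dsc2 by itself differed by 3.05 (adjusted p 7.8e-07). The ratio of Dsc3 to Dsc2 holds 2 luminal libraries in which Dsc3 had no count. Its difference was 6.44 with 1 and 7.81 with 0.1 added to each count in place of 0.5. Luminal replicate 2 also had no Dsg3 count. The difference of Dsg3 to Dsg2 was 3.65 with 1 (exact permutation p 0.0238) and 4.51 with 0.1 added.

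**Figure D4:**
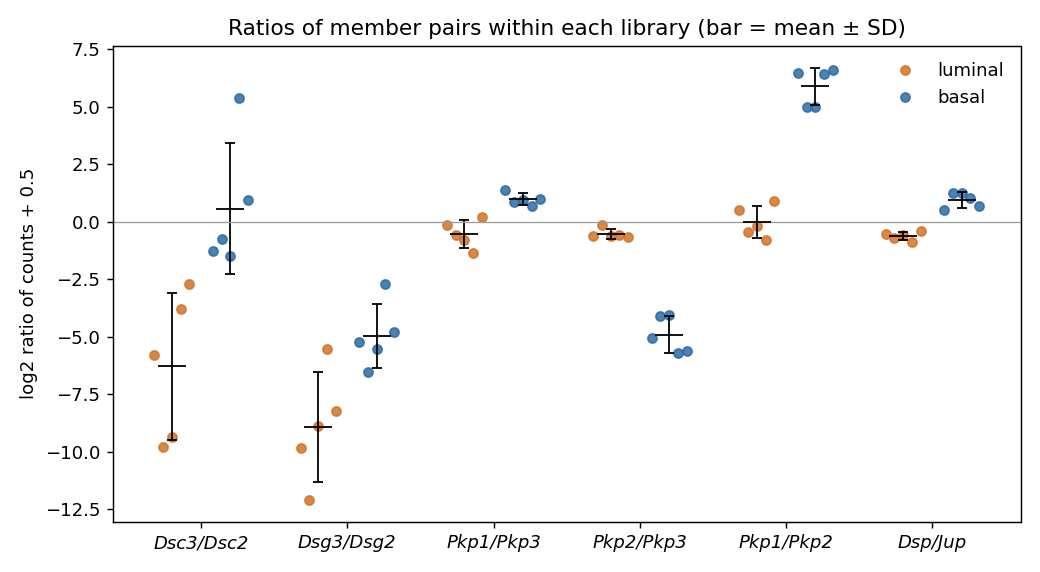
Log2 ratio of the counts of member pairs in each library, with 0.5 added to each count, luminal in orange and basal in blue, and mean ± SD. The groups are apart for every pair but Dsg3/Dsg2, and Pkp1/Pkp2 shows basal values of 4.98 to 6.58 against luminal values of -0.81 to 0.90.

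Of 10 further desmosomal genes, 5 passed the filter on low counts, 2 of which were higher in luminal cells and none in basal cells, where 33.6% and 31.2% of all genes tested were. Both encode plakins that are related to desmoplakin and known from the cornified layer of stratified epithelia. In luminal replicates 1 to 5 Evpl (envoplakin) was at 158, 119.7, 149.6, 124 and 123 CPM. In basal replicates 1 to 5 it was at 2.12, 1.70, 0.850, 9.06 and 2.75 CPM. Its log2 fold change was 5.34 (SE 0.47, adjusted p 2.06e-07), with the highest basal value in replicate 4 and no overlap. Without basal replicate 4 the difference in Evpl was 6.14 (adjusted p 1.43e-09). Ppl (periplakin), its partner, averaged 114 ± 28.5 CPM in luminal and 33.6 ± 11.7 CPM in basal libraries (SD, n = 5 each), a log2 fold change of 1.76 (SE 0.25, adjusted p 2.77e-05). The plakins thus went in opposite directions. Per kilobase, Dsp made up 42.7% ± 5.90 of the summed level of Dsp, Evpl and Ppl in luminal and 94.0% ± 2.56 in basal libraries (SD, n = 5).

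Pkp4, a plakophilin relative found mainly at adherens junctions, averaged 112 ± 39.2 CPM in luminal and 154 ± 26.4 CPM in basal libraries (SD, n = 5 each). Its log2 fold change of -0.46 did not pass (adjusted p 0.0664), but passed, among others, with the replicate block (-0.51, adjusted p 0.0105), DESeq2 (adjusted p 0.0465) and limma voom (adjusted p 0.0379). Pnn (pinin) had a log2 fold change of -0.29 (adjusted p 0.106), which passed without luminal replicate 3 (-0.43, adjusted p 0.0198), and Cdsn (corneodesmosin) of -0.04 (adjusted p 0.906). Dsc1, Dsg1a, Dsg1b, Dsg1c and Dsg4, desmosomal cadherins of the upper epidermis and hair, did not pass the filter and, Dsg1a aside, were at most 1.37 CPM in any library. Dsg1a was at 12.4 CPM in basal replicate 4, 0.824 CPM in luminal replicate 5, 0.534 CPM in luminal replicate 4, 0.12 CPM in basal replicate 5 and 0 in the other 6 libraries. The Dsg1 genes are near-identical copies, so the division of reads among them is uncertain.

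**Figure D5:**
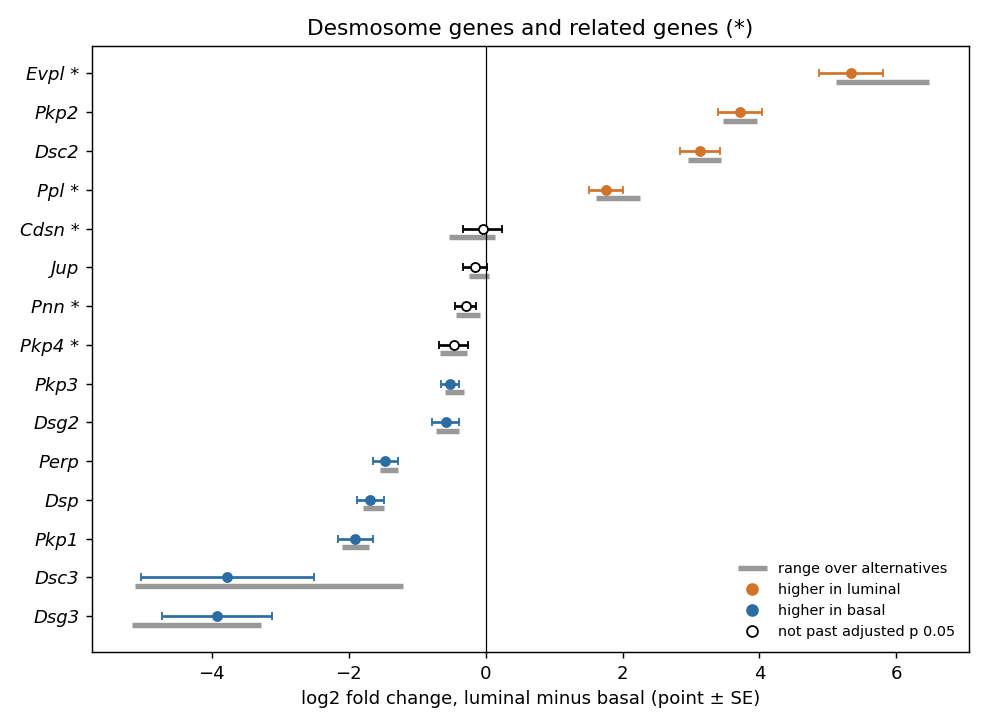
Log2 fold change (luminal minus basal) of the desmosome genes and of related genes (marked with *), with the standard error as whiskers and the range over all alternative fits as a grey bar. The grey bar of Dsc3 is the widest among the 10 desmosome genes, from -5.12 to -1.21, and that of Jup crosses 0.

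The filament system that desmosomes hold differed in every gene listed. Of 10 keratin and vimentin genes, 4 were higher in luminal cells and 6 in the basal layer, against 33.6% and 31.2% of all genes tested. The layers did not overlap for any of the 10, against 50.1% of all genes, and the median log2 fold change was -3.28. Krt5, Krt14, Krt8, Krt18 and Krt19 are also among the lineage markers that were used to check the labels. Their separation was therefore known beforehand and is no separate result. Krt14 and Krt5, the keratin pair of basal cells, differed most towards basal cells (-7.68 and -7.46, adjusted p 4.44e-09 and 7.34e-09). Krt19 and Krt7, keratins of simple epithelia, differed most towards luminal cells (4.99 and 4.45, adjusted p 8.83e-09 and 5.84e-10). Of 10 adherens junction genes, 4 were higher in luminal cells and 4 in the basal layer, shares near the 33.6% and 31.2% of all genes, with a median of -0.02. Cdh3 (P-cadherin) averaged 527 ± 66.2 CPM in basal and 4.19 ± 0.884 CPM in luminal libraries (SD, n = 5 each), a log2 fold change of -6.97 (adjusted p 2.75e-11). Vcl (vinculin), which links junctions to actin, was also higher in basal cells (-1.50, adjusted p 4.83e-06), and Nectin4 and Nectin2, adhesion molecules of the immunoglobulin family, were higher in luminal cells (3.75 and 1.63, adjusted p 6.3e-09 and 1.37e-07).

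Of 11 genes known to act on desmosome turnover, calcium supply or transport, 5 were higher in luminal cells and 4 in the basal layer, where 33.6% and 31.2% of all genes were, with a median log2 fold change of 0.25. Adam10, a protease that cleaves desmoglein 2, averaged 505 ± 41.1 CPM in luminal and 63.5 ± 12.8 CPM in basal libraries (SD, n = 5 each), with a log2 fold change of 2.99 (adjusted p 1.77e-09). Atp2a2 and Atp2c1 encode the calcium pumps of the endoplasmic reticulum and of the Golgi apparatus, whose loss disturbs desmosomes in skin. Atp2a2 was higher in basal cells (-2.41, adjusted p 4.45e-08) and Atp2c1 in luminal cells (1.15, adjusted p 7.88e-06), the latter not in the test against a 2-fold change (adjusted p 0.173). Prkca, a kinase that loosens desmosomal adhesion, was higher in basal cells (-1.45, adjusted p 2.51e-06).

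Of 8 transcription factors of epithelial junction genes, 5 were higher in luminal cells and 3 in the basal layer, against 33.6% and 31.2% of all genes, with a median of 0.64. Trp63, the regulator of stratified epithelia, averaged 277 ± 30.0 CPM in basal and 1.11 ± 0.565 CPM in luminal libraries (SD, n = 5 each), with a log2 fold change of -7.95 (adjusted p 4.93e-11). Klf4, a factor of epithelial differentiation, was likewise higher in basal cells (-1.35, adjusted p 0.000888), but not in the test against a 2-fold change (adjusted p 0.125). The grainyhead-like genes Grhl1 and Grhl3 were higher in luminal cells (5.65 and 3.58, adjusted p 6.27e-10 and 0.000494). Grhl3 was at 3.37 CPM in basal replicate 4, against 0 to 0.599 CPM in the other basal libraries, and without that library its log2 fold change was 5.14 (adjusted p 3.08e-06).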

How the data were processed

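Sorted luminal and basal cells were profiled by bulk RNA-seq, and the authors deposited a table of raw counts (whole numbers of reads per gene, not normalized). The labels name total RNA and NEBNext Ultra II libraries, and the submitters' processing notes name cutadapt 4.2 and Bowtie2 2.3.5.1. The study describes poly(A) selection, single-end reads and the mouse build mm10, with fewer replicates than the 5 here. The counting tool, its annotation and its use of strand are not given in the sources used here, so values of genes that share reads with close copies or neighbours are uncertain.

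Entrez identifiers were matched to symbols in a RefSeq table of GRCm38.p6 (24570 of 24594), the assembly behind mm10, and transcript lengths came from GENCODE M21. Groups follow the cell type label, with which the source name and the library description agree in letter. Same-numbered libraries share the leading number of that description, read as the animal. Their deviations from the group means correlated at -0.13, 0.11, -0.07, 0.25 and 0.06.

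Genes passing filterByExpr (minimum count 10, minimum total 15) were tested with edgeR 4.0.16 (R 4.3.3, TMM factors, quasi-likelihood, cell type as the only term). P-values were adjusted by Benjamini-Hochberg over all 14609 genes tested, and a gene was called at an adjusted p under 0.05. SE was taken as the size of the change over the root of its F statistic. CPM uses all counts of a library times its TMM factor. The 6 ratios used counts + 0.5 and exact two-sided permutation tests. Limits for counts of 0 are 3 counts per library and cover counting error only. Alternatives were DESeq2 1.42.0, limma voom 3.58.1, other size factors and filters, a 2-fold test (glmTreat), the replicate block (for ratios, signs permuted within pairs), each library left out, other pseudocounts and coding lengths. The tests were first run on simulated data with known changes.

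The 10 genes and all further lists were chosen with earlier results of these data known. Named genes are the 10 members, the further desmosomal genes and, from each partner list, up to 2 with the largest positive and 2 with the largest negative change among those called, provided that the group with the higher level averaged 10 CPM or more.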

Additional observations from a re-analysis of the deposited data

Results flagged for a closer look

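The desmosomal genes, the genes named from the partner lists, the keratinocyte genes, the called markers of non-epithelial cells and the ratios were examined for a library that Dixon's test sets apart from the rest of its layer. Of 107 groups of 5 libraries with more than 3 counts in any library, 13 held such a library. Chance sets a library apart in about 1 in 20 groups, but these groups are not independent, since several genes peak in the same library. Basal replicate 4 was the library in 10 of the 13.

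Among desmosomal genes, Dsc3 was at 55.3 CPM in basal replicate 4 against 0.685 to 5.03 CPM in the other basal libraries. Dsg1a was at 12.4 CPM there against 0 to 0.12 CPM, Dsg1b at 1.37 CPM against 0 to 0.12 CPM, and Evpl at 9.06 CPM against 0.850 to 2.75 CPM. Of the transcription factors, Grhl3 was at 3.37 CPM there against 0 to 0.599 CPM. The keratinocyte genes Krt1 (111 CPM against 0.204 to 2.58), Krt10 (246 CPM against 2.32 to 10.1), Krt77 (24.1 CPM against 0 to 2.75) and Krtdap (13.6 CPM against 0 to 0.719) stood apart in the same library. In these genes and this library, the values moved together, and the cause was not tested.

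Of the markers of non-epithelial cells, Cd52 was at 3.06 CPM in basal replicate 4 against 0.299 to 0.997 CPM, and Pdgfra at 19.4 CPM in basal replicate 3 against 9.93 to 11.5 CPM. In luminal replicate 4, Dsg3 stood at 1.60 CPM, with 0 to 0.444 CPM in the remaining luminal libraries. The log2 ratio of Pkp2 to Pkp3 was -0.13 in luminal replicate 2, against -0.68 to -0.57 in the other luminal libraries.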

How the results depend on the processing

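Counts of called members were 2 towards luminal cells in every alternative, and 4 to 7 towards basal cells. The 4 came from the test against a 2-fold change. With the replicate block the counts were 2 and 7, as reported. The block changed no call of a member. Leaving out each library gave 2 and 6 to 7. Without both libraries numbered 4 the counts were 2 and 6, and without those numbered 5 as well 2 and 5. Library totals and upper-quartile factors shift the median of all genes, from 0.05 to 0.24 and 0.17. On library totals Jup was at 0.044 and Cdsn at 0.14, and with upper-quartile factors Cdsn was at 0.082, all of opposite sign to the reported values. The cause was not tested beyond this shift. Left-out libraries gave -0.16 to 0.11 for Cdsn.

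The differences of the ratios kept their direction throughout. Leaving out each library gave 5.66 to 7.76 (Dsc3/Dsc2), 3.16 to 4.79 (Dsg3/Dsg2), 1.30 to 1.70 (Pkp1/Pkp3), -4.60 to -4.18 (Pkp2/Pkp3), 5.69 to 6.11 (Pkp1/Pkp2) and 1.49 to 1.68 (Dsp/Jup). Without both libraries numbered 4 and both numbered 5 they were 7.16, 4.50, 1.57, -3.95, 5.52 and 1.61 in the same order, with exact permutation p = 0.1, the smallest that 3 against 3 can give. With the replicate block (signs permuted within same-numbered pairs) the differences were 6.86, 3.95, 1.51, -4.38, 5.89 and 1.57. Each had an exact permutation p of 0.0625, the smallest that 5 pairs can give, so this test could not reach the threshold. Dsc3 did not pass the filter without the libraries numbered 4 and 5, neither Dsc3 nor Dsg3 passed that of 10 counts in every library, and DESeq2 without the replicate block gave no adjusted p for Dsc3. Of 216 alternative values of single members, 205 kept direction and side of the threshold, 10 lost the call and 1 changed sign. Low counts limit Dsc3, Dsg3 and the Dsg1 genes, and 5 libraries per layer limit the rest.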
